A study of Mus musculus with 16 samples.

Results

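Transcripts of 9 genes that mark microglia, *Csf1r*, *C1qa*, *C1qb*, *C1qc*, *Cx3cr1*, *Aif1*, *Trem2*, *Tyrobp* and *P2ry12*, were followed through cultures of embryonic mouse motoneurons. They were taken by gene symbol from a count table of 46320 genes, and each symbol matched 1 row. The motoneurons came from lumbar spinal cords of mouse embryos at day 13, were enriched by p75NTR panning and grown in microfluidic chambers, which separate a somatodendritic from an axonal compartment. RNA of both compartments was sequenced from wild-type (+/+) and hnRNP R knockout (*Hnrnpr*-/-) motoneurons, with 4 libraries in each of 4 groups, 16 in total. The knockout allele lacks *Hnrnpr* exons 1 to 5 after CRISPR/Cas9 editing of mouse eggs, and the mice were backcrossed to C57Bl/6 before use. All cultures received CNTF at 5 ng/ml and 2% horse serum, and BDNF at 20 ng/ml was given on the axonal side of all 4 groups. Amplification of cDNA took 10 PCR cycles in somatodendritic and 15 in axonal samples, so that the cycle number and the compartment cannot be told apart.

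Microglia are the resident macrophages of the brain and spinal cord. They arise from yolk sac progenitors that enter the neural tube during embryonic life, and they depend on signalling through the receptor encoded by *Csf1r*. In the spinal cord they clear dying cells and take part in the removal of synapses, a process in which the complement component C1q tags material for uptake. Microglia are not of the motoneuron lineage, and most of these genes are also expressed in other macrophages, with *P2ry12* among the more restricted ones.

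Total counts per library ranged from 22024923 to 34864151. Levels are given as CPM, that is, counts scaled by the library total and an edgeR TMM factor, and a library without a read allows up to 3 counts, or 0.0811 to 0.141 CPM. *Hnrnpr*, the deleted gene, had 178.4 to 240.7 CPM in +/+ and 0.544 to 1.16 CPM in *Hnrnpr*-/- somatodendritic libraries, and 120.0 to 422.1 against 0.597 to 1.10 CPM in axonal libraries. Neuronal transcripts were abundant in the somatodendritic libraries, where 6 pan-neuronal genes summed to 5220 to 8009 CPM. The motoneuron genes were low. Their 8 genes summed to 17.8 to 35.3 CPM in somatodendritic and 3.39 to 16.7 CPM in axonal libraries, and *Mnx1*, a transcription factor that defines motoneurons, had at most 3 counts in every library.

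The 9 microglia genes were detected in both compartments and both genotypes, at levels that differed widely between libraries of the same group. Their summed level in +/+ somatodendritic libraries was 56.9, 28.2, 43.9 and 12.7 CPM in replicates 1 to 4. In *Hnrnpr*-/- somatodendritic libraries it was 13.6, 46.9, 61.7 and 166.5 CPM. Replicates 1 to 3 lay near the +/+ range, and replicate 4 stood above all other somatodendritic libraries. That library was also the highest somatodendritic one for the summed genes of astrocytes or radial glia, at 2241 CPM, of oligodendroglia or Schwann cells, at 1039 CPM, of fibroblasts or meningeal cells, at 1238 CPM, and of endothelial cells, at 34.5 CPM, and the lowest for pan-neuronal genes, at 5220 CPM. The part of these cells in its microglia gene levels was not tested. In +/+ axonal libraries the summed level was 150.4, 62.1, 8.87 and 20.0 CPM. In *Hnrnpr*-/- axonal libraries it was 1.10, 56.6, 0.960 and 545.9 CPM. The highest and lowest libraries differed 4.49-fold in the +/+ and 12.3-fold in the *Hnrnpr*-/- somatodendritic group, 17.0-fold in the +/+ axonal group and 568.5-fold in the *Hnrnpr*-/- axonal group. In bulk RNA of this kind, fewer cells of origin and less RNA per cell cannot be told apart. The sums also do not separate microglia from other macrophages, in which most of these genes are expressed.

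**Figure D1:**
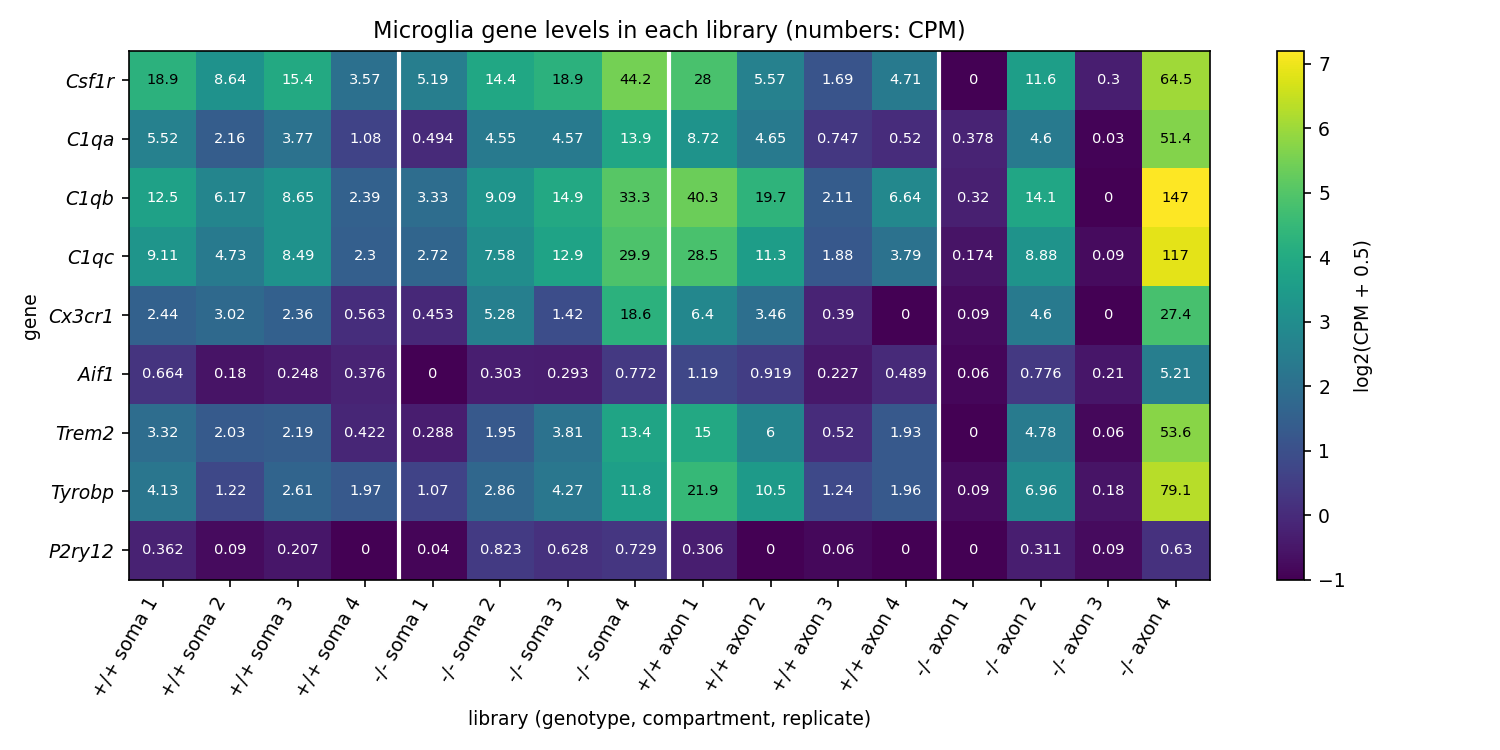
Level of each of the 9 microglia genes (rows) in each of the 16 libraries (columns, by genotype, compartment and replicate), with the CPM printed in each cell and the colour showing log2(CPM + 0.5). *Hnrnpr*-/- axonal replicate 4 is the highest axonal library for all 9 genes, and *Hnrnpr*-/- axonal replicates 1 and 3 are at or near 0 for most of them.

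A few libraries held most of the signal. *Hnrnpr*-/- axonal replicate 4 had 16466 counts over the 9 genes and was the highest axonal library for 9 of 9. *Hnrnpr*-/- somatodendritic replicate 4, which carries the same replicate number, had 3881 counts and was the highest somatodendritic library for 8 of 9, the exception being *P2ry12*, highest in replicate 2. At the other end, *Hnrnpr*-/- axonal replicates 1 and 3 had 38 and 32 counts in all, and only 3 of 9 genes exceeded 3 counts in each. The total counts of these 2 libraries, 34316113 and 33333300, were above that of replicate 4, 27688199. In axonal replicates 1, 3 and 4 the pan-neuronal genes summed to 4587, 395.1 and 804.1 CPM. Genes of astrocytes or radial glia summed to 3232, 4960 and 4520 CPM there, and those of oligodendroglia or Schwann cells to 252.5, 436.0 and 1614 CPM. Genes of fibroblasts or meningeal cells had 826.9, 662.5 and 1760 CPM. The part of these cells in the microglia gene levels was not tested.

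When libraries of the same genotype and replicate number were set side by side, the axonal level exceeded the somatodendritic one in 5 of 8 pairs. These pairs are called cultures below, although the labels do not state that both libraries came from the same culture. The axonal sum was 2.64, 2.20, 0.202 and 1.58 times the somatodendritic sum in +/+ replicates 1 to 4. It was 0.0813, 1.21, 0.0156 and 3.28 times that sum in *Hnrnpr*-/- replicates 1 to 4. In 5 of the 8 cultures at least 8 of the 9 genes moved the same way. All 9 were lower in axons in replicate 3 of either genotype, and 8 of 9 were higher in axons in +/+ replicate 1 and in *Hnrnpr*-/- replicate 4. *P2ry12* was the gene that was not higher in these 2 cultures. In *Hnrnpr*-/- replicate 1 only 1 gene was higher in axons, whereas 7 were in +/+ replicate 2, 6 in *Hnrnpr*-/- replicate 2 and 5 in +/+ replicate 4.

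**Figure D2:**
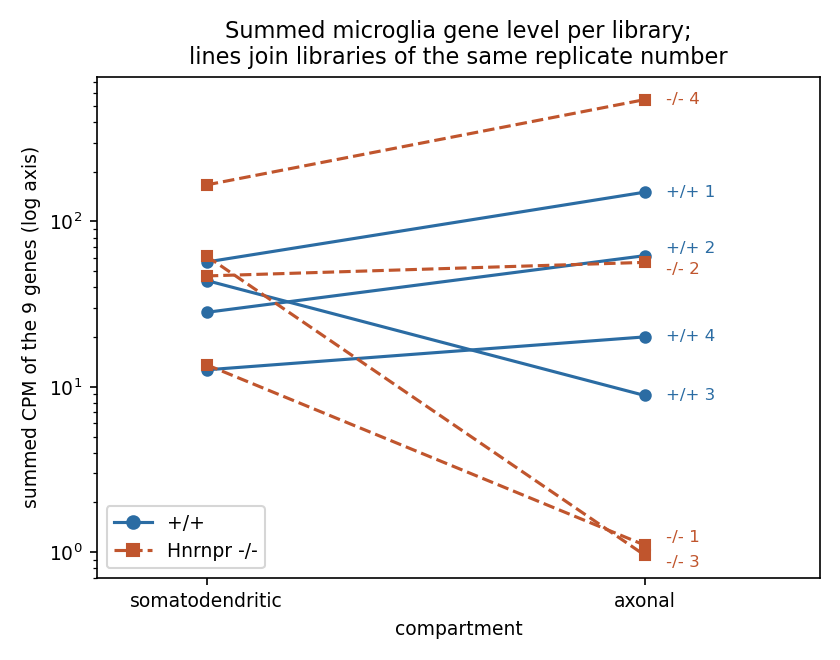
Summed CPM of the 9 microglia genes (log axis) in the somatodendritic and axonal compartments, with a line joining libraries of the same genotype and replicate number (circles and solid lines, +/+; squares and dashed lines, *Hnrnpr*-/-). The axonal libraries spread from 0.960 to 545.9 CPM and the somatodendritic ones from 12.7 to 166.5 CPM, and the lines run upwards in 5 of 8 pairs.

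*Csf1r* (chromosome 18, 61238644 to 61264211, plus strand, GRCm39) encodes the receptor for CSF1 and IL-34, on which microglia survival depends. Its levels in +/+ somatodendritic libraries were 18.9, 8.64, 15.4 and 3.57 CPM, and in *Hnrnpr*-/- somatodendritic libraries 5.19, 14.4, 18.9 and 44.2 CPM. In +/+ axonal libraries they were 28.0, 5.57, 1.69 and 4.71 CPM, and in *Hnrnpr*-/- axonal libraries 0, 11.6, 0.300 and 64.5 CPM. All 4 groups overlapped, and both axonal groups were led by a single library. *Cx3cr1* (chromosome 9, 119877749 to 119897362, minus strand) encodes the receptor for the neuronal chemokine CX3CL1. It had 2.44, 3.02, 2.36 and 0.563 CPM in +/+ and 0.453, 5.28, 1.42 and 18.6 CPM in *Hnrnpr*-/- somatodendritic libraries. In axonal libraries it had 6.40, 3.46, 0.390 and 0 CPM in +/+ and 0.0872, 4.60, 0 and 27.4 CPM in *Hnrnpr*-/- motoneurons. The groups again overlapped, with no read in 1 axonal library of each genotype.

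*P2ry12* (chromosome 3, 59123692 to 59170408, minus strand), a purine receptor that guides microglial processes to ATP, was barely detected. It had 12, 2, 5 and 0 counts in +/+ and 1, 19, 15 and 17 counts in *Hnrnpr*-/- somatodendritic libraries. Axonal libraries had 9, 0, 2 and 0 counts in +/+ and 0, 10, 3 and 19 counts in *Hnrnpr*-/- motoneurons. Of the 16 libraries, 8 had no more than 3 counts. *Hnrnpr*-/- axonal replicate 4 was the highest axonal library of *P2ry12* too, with 0.630 CPM against at most 0.311 CPM in the others, but its 19 counts there compare with 4435 of *C1qb*. The exons of all *P2ry12* transcripts in the GENCODE annotation cover 3206 bases and share 294 of them with *Med12l* on the other strand, and since the library kit does not mark strand, reads from these bases cannot be assigned to either gene.

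The 3 chains of C1q, which starts the classical complement cascade, are encoded by *C1qb*, *C1qc* and *C1qa* in 1 cluster of 18719 bases on the minus strand of chromosome 4. *C1qb* (136607437 to 136613511) had 12.5, 6.17, 8.65 and 2.39 CPM in +/+ and 3.33, 9.09, 14.9 and 33.3 CPM in *Hnrnpr*-/- somatodendritic libraries. Its axonal levels were 40.3, 19.7, 2.11 and 6.64 CPM in +/+ and 0.320, 14.1, 0 and 147.0 CPM in *Hnrnpr*-/- motoneurons. The axonal libraries thus held both the highest and the lowest *C1qb* levels. *C1qc* (136617112 to 136620242) ranged from 2.30 to 29.9 CPM over the somatodendritic and from 0.0900 to 117.0 CPM over the axonal libraries. *C1qa* (136623227 to 136626155) ranged from 0.494 to 13.9 CPM and from 0.0300 to 51.4 CPM. For each of the 3 chains, replicate 4 of the *Hnrnpr*-/- motoneurons was the highest library of both compartments.

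The C1q cluster is on the same chromosome as the deleted gene and begins 520679 bases beyond the end of *Hnrnpr* (chromosome 4, 136038230 to 136086758). Of the 58 genes that start within 1000000 bases of *Hnrnpr*, 32 were tested between genotypes in somatodendritic and 33 in axonal libraries. None of them passed the adjusted threshold of edgeR in either compartment, and 0 had an unadjusted p under 0.05, beside 2.62% of all genes in somatodendritic and 0.723% in axonal libraries.

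*Trem2* and *Tyrobp* encode a lipid-sensing receptor of macrophages and the adaptor through which it signals. *Tyrobp* (chromosome 7, 30113207 to 30117007, plus strand) had 4.13, 1.22, 2.61 and 1.97 CPM in +/+ and 1.07, 2.86, 4.27 and 11.8 CPM in *Hnrnpr*-/- somatodendritic libraries. In axonal libraries it had 21.9, 10.5, 1.24 and 1.96 CPM in +/+ and 0.0872, 6.96, 0.180 and 79.1 CPM in *Hnrnpr*-/- motoneurons. *Trem2* (chromosome 17, 48653429 to 48659304, plus strand) followed it. It spanned 0.288 to 13.4 CPM in somatodendritic and 0 to 53.6 CPM in axonal libraries. *Aif1* (chromosome 17, 35389962 to 35395050, minus strand) encodes the calcium-binding protein Iba1, the usual antigen for staining microglia. It had few reads, with 22, 4, 6 and 8 counts in +/+ and 0, 7, 7 and 18 in *Hnrnpr*-/- somatodendritic libraries, and 35, 34, 7 and 16 in +/+ and 2, 25, 7 and 157 in *Hnrnpr*-/- axonal libraries. Its groups overlapped, and 703 of the 4236 bases that its exons cover in the GENCODE annotation are shared with *Gm17705* on the other strand, from which its reads cannot be told apart.

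Levels of different genes were compared per kilobase of exon, with the exon lengths of the RefSeq annotation given in the count table, which were 1028 bases for *Aif1* and 2681 for *P2ry12*, shorter than those in GENCODE. In +/+ somatodendritic libraries *C1qb* was highest, at 6.72 ± 3.83 CPM per kb (SD, n = 4), before *C1qc* at 5.49 ± 2.87, *Tyrobp* at 4.32 ± 2.16, *Csf1r* at 2.998 ± 1.77 and *C1qa* at 2.90 ± 1.79 CPM per kb. *Trem2* at 1.74 ± 1.04, *Cx3cr1* at 0.558 ± 0.283, *Aif1* at 0.357 ± 0.208 and *P2ry12* at 0.0615 ± 0.0584 CPM per kb followed. Neighbours in this order overlapped between libraries except for *Aif1* and *P2ry12*. The other 3 groups had *C1qb* or *Tyrobp* first and *P2ry12* last. *Csf1r*, between *Tyrobp* and *C1qa* in +/+ somatodendritic libraries, came after *C1qa* and *Trem2* in both axonal groups, at 2.58 ± 3.13 CPM per kb in +/+ and 4.93 ± 7.93 in *Hnrnpr*-/- motoneurons, although it overlapped its neighbours there. In *Hnrnpr*-/- somatodendritic libraries it also came after *C1qa* (5.34 against 5.42 CPM per kb) but before *Trem2* (4.25).

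The 9 genes rose and fell together across libraries. Over all 16 libraries, the pairwise correlations of log2(CPM + 0.5) had a median r of 0.88 (0.44 to 0.99, 36 pairs), and without *P2ry12* the lowest was 0.64. In the 8 somatodendritic libraries the median was 0.84 and in the 8 axonal libraries 0.95. These correlations are descriptions. The libraries share 2 compartments and 2 genotypes, and the axonal ones include *Hnrnpr*-/- replicates 1 and 3 at the bottom and replicate 4 at the top.

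The proportions among the genes were not the same in the 2 compartments. This was seen after the values were examined and is given without a test, for the 8 somatodendritic and 6 axonal libraries with at least 100 counts over the 9 genes. *Csf1r* made up 26.5 to 38.2% of the counts of the 9 genes in somatodendritic libraries and 9.0 to 23.5% in axonal ones, with medians of 30.7% and 18.8%. There were 1.27 to 1.78 *Csf1r* counts per *C1qb* count in somatodendritic and 0.283 to 0.826 in axonal libraries. The limit left out *Hnrnpr*-/- axonal replicates 1 and 3, with 38 and 32 counts, in which *Csf1r* made up 0% and 31.25%. Among the libraries kept, both measures separated the compartments without overlap, in either genotype. In contrast, *C1qc* per *C1qb* was 0.731 to 0.981 and 0.571 to 0.892, which overlapped. *Tyrobp* per *Csf1r* was 0.141 to 0.553 in somatodendritic and 0.416 to 1.88 in axonal libraries, with medians of 0.213 and 0.757. *Csf1r* is the longest of the 9 by exon length, at 3.88 kb of exon against 1.10 kb for *C1qb* and 0.575 kb for *Tyrobp*. *Cx3cr1*, nearly as long at 3.75 kb, had median shares of 4.91% in somatodendritic and 4.71% in axonal libraries, and medians of 0.156 and 0.313 counts per *Csf1r* count. The part of transcript length, RNA quality and PCR cycles in these ratios was not tested.

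**Figure D3:**
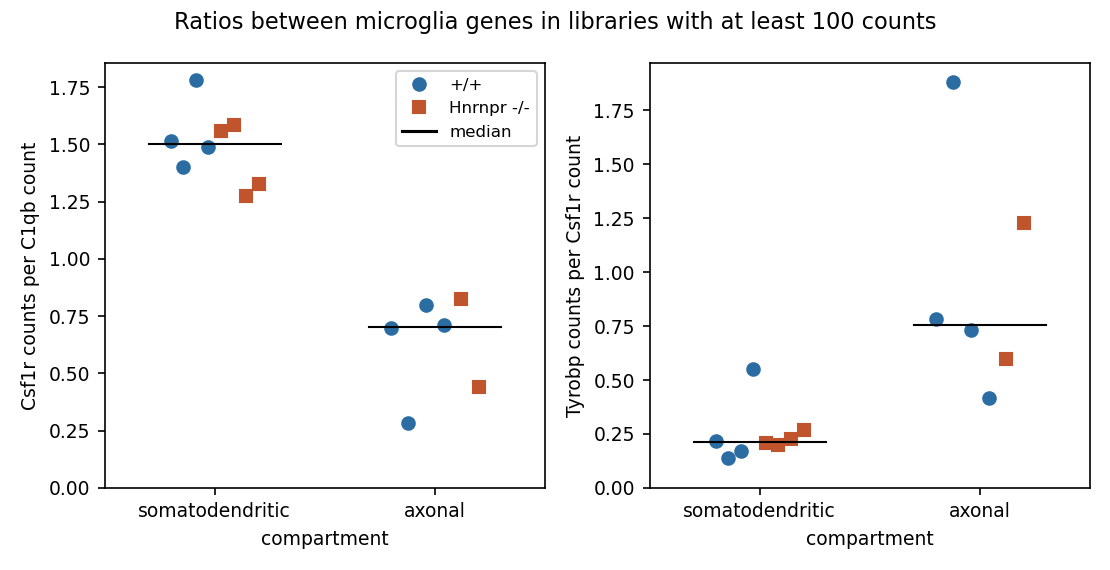
Counts of *Csf1r* per count of *C1qb* (left) and of *Tyrobp* per count of *Csf1r* (right) in each library with at least 100 counts over the 9 genes, by compartment (circles, +/+; squares, *Hnrnpr*-/-; lines, medians over 8 somatodendritic and 6 axonal libraries). *Csf1r* per *C1qb* is 1.27 or more in every somatodendritic and 0.826 or less in every axonal library shown, whereas *Tyrobp* per *Csf1r* overlaps.

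The compartments were then compared in each genotype with edgeR's quasi-likelihood test in a model of all 16 libraries, with Benjamini-Hochberg adjustment over the 19964 genes tested and a threshold of 0.05. In +/+ motoneurons, 0 of 9 microglia genes passed, where 57.5% of all genes tested did. None had an unadjusted p under 0.05 either, as 62.2% of all genes had, and DESeq2 also called 0. *Tyrobp* had the largest value, a log2 fold change of 1.83 in axons (standard error 1.42, adjusted p = 0.284 from edgeR), and *Trem2* had 1.55 (standard error 1.57), *C1qb* 1.21 (standard error 1.44), *Aif1* 0.92 and *C1qc* 0.88. *Cx3cr1*, *C1qa* and *Csf1r* had 0.29, 0.22 and -0.22, with standard errors of 1.33 to 1.58, and *P2ry12* had -0.91 (standard error 1.30). The median over the 9 genes was 0.88, beside 0.07 over all genes tested. Without axonal replicate 1, in which all 9 genes had their highest +/+ axonal level, this median was -0.13 and the values of *C1qa*, *C1qc* and *Cx3cr1* changed sign. With each culture as a block, an analysis added after the data were seen, the median was 0.49, with 5 genes above and 4 below 0, *C1qa* at -0.30 and *Cx3cr1* at -0.79 among the latter, and 0 passed.

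In *Hnrnpr*-/- motoneurons 0 of 9 passed as well, against 54.2% of all genes tested, and 0 had an unadjusted p under 0.05 (59.8% of all genes) or passed in DESeq2. The log2 fold change was 2.18 for *Aif1* (standard error 1.12, adjusted p = 0.114 from edgeR), 2.11 for *Tyrobp* (standard error 1.42) and 1.59 for *Trem2* (standard error 1.55). *C1qb*, *C1qa* and *C1qc* had 1.41, 1.27 and 1.25, *Cx3cr1* 0.31, *Csf1r* -0.12 and *P2ry12* -1.11. Leaving out *Hnrnpr*-/- axonal replicate 4 changed the sign of 6 genes, gave a median of -1.81 in place of 1.27 and left only *Aif1* above 0, at 0.02. Leaving out *Hnrnpr*-/- axonal replicate 1 brought *Aif1* past the threshold (log2 fold change 2.57, adjusted p = 0.0447 from edgeR). With each culture as a block, 8 of 9 genes were below 0 in axons and again 0 passed. None of the 9 genes had ranges that failed to overlap between the compartments in either genotype, whereas 52.4% of all genes in +/+ and 51.4% in *Hnrnpr*-/- motoneurons did not overlap.

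The genotypes were compared within each compartment, with models of the 8 libraries concerned. In somatodendritic libraries 7 of the 9 genes passed the expression filter, and 0 of these 7 were called, where 0.00557% of the 17961 genes tested were, which is *Hnrnpr* alone. All 7 had a higher mean in *Hnrnpr*-/- motoneurons, with none at an unadjusted p under 0.05, as 2.62% of all genes were, and none called by DESeq2. The log2 fold change was 1.62 for *Cx3cr1* (standard error 0.89, unadjusted p = 0.0982 and adjusted p = 0.999 from edgeR), 1.28 for *Trem2* (standard error 0.86), 1.11 for *C1qc* (standard error 0.62) and 1.03 for *C1qb* (standard error 0.62). *Tyrobp* had 1.00, *C1qa* 0.90 and *Csf1r* 0.83. The median of 1.03, beside 0.01 over all genes tested, was 0.15 without *Hnrnpr*-/- replicate 4, with values from 0.01 to 0.33. Without *Hnrnpr*-/- replicate 1, 8 genes were tested and all 8 had an unadjusted p under 0.05, as 2291 of all 18263 genes had, with 0 of the 8 called in edgeR.

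*Aif1* and *P2ry12* had too few somatodendritic counts for this model. *Aif1* had 0.367 ± 0.214 CPM in +/+ and 0.342 ± 0.319 in *Hnrnpr*-/- libraries (SD, n = 4, p = 0.914, exact two-sided permutation test). *P2ry12* had 0.165 ± 0.157 and 0.555 ± 0.352 CPM (n = 4, p = 0.114, exact two-sided permutation test). With 4 libraries against 4, the smallest p of this exact test is 0.0286.

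In axonal libraries 8 of the 9 genes were tested, and 0 were called, where 0.00528% of 18957 genes were, again *Hnrnpr* alone. None had an unadjusted p under 0.05, as 0.723% of all genes had, and DESeq2 called none of the 5 for which it gave an adjusted p. The log2 fold changes of *Hnrnpr*-/- against +/+ ran from 0.95 for *Csf1r* (standard error 1.67) to 1.96 for *C1qa* (standard error 1.69, adjusted p = 1 from edgeR), with *Cx3cr1* at 1.65, *C1qc* at 1.49, *Trem2* at 1.34, *Tyrobp* at 1.30, *C1qb* at 1.25 and *Aif1* at 1.16. All 8 were above 0, yet without *Hnrnpr*-/- replicate 4 all 8 were below 0, from -1.92 to -0.74, and with the replicate number as a block they ran from -1.96 to -0.16, with 0 called. *P2ry12* had 0.0929 ± 0.146 CPM in +/+ and 0.258 ± 0.280 in *Hnrnpr*-/- axonal libraries (n = 4, p = 0.286, exact two-sided permutation test). None of the 9 genes separated the genotypes without overlap in either compartment, as did 1.58% of all genes in somatodendritic and 0.606% in axonal libraries.

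**Figure D4:**
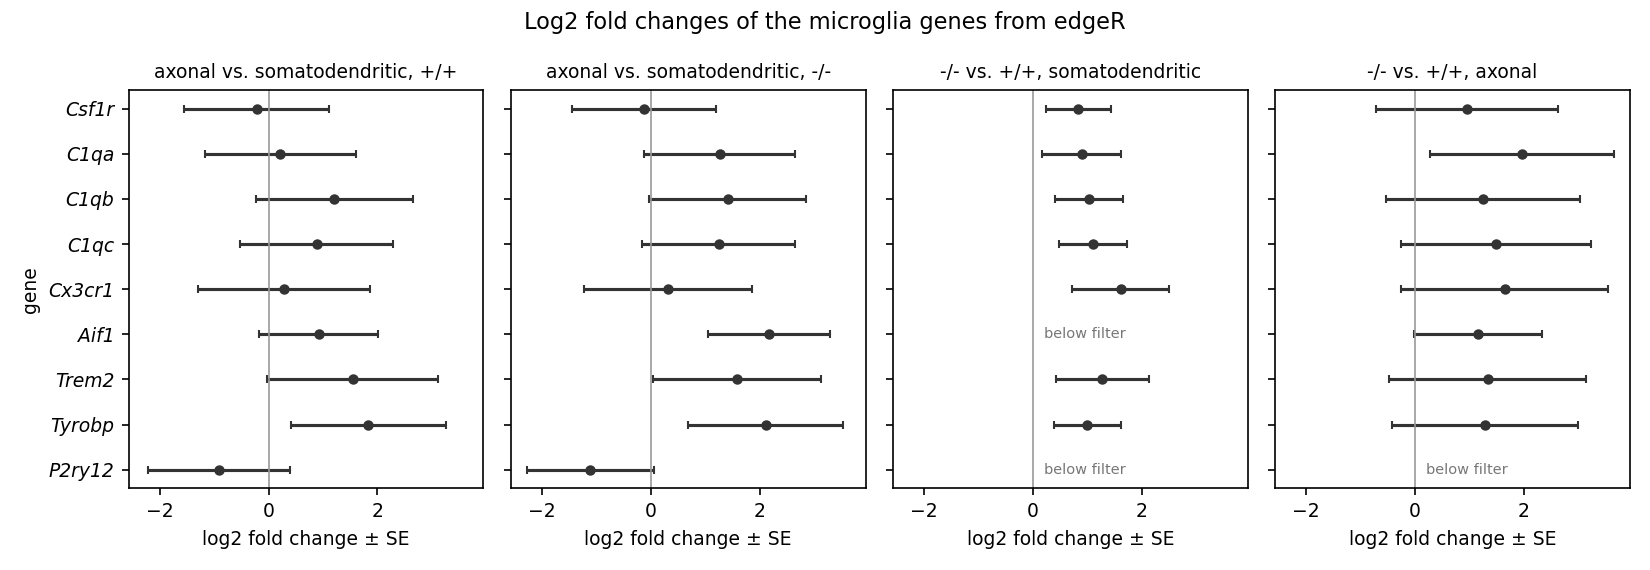
Log2 fold changes of the 9 microglia genes from edgeR (points) with their standard errors (bars) for axonal against somatodendritic libraries in +/+ and *Hnrnpr*-/- motoneurons and for *Hnrnpr*-/- against +/+ in each compartment. No gene passed an adjusted p of 0.05 in any panel, and genes below the expression filter have no point.

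Whether the genotype effect differed between compartments was tested as an interaction. It gave log2 differences from -0.20 for *P2ry12* to 1.26 for *Aif1*, with standard errors of 1.56 to 2.24 and a median of 0.21, and 0 of 9 genes passed in edgeR, as did 0% of all genes tested. None of the 9 had an unadjusted p under 0.05, against 1.33% of all genes, and DESeq2 called 0 of them. The sign of these differences depended on single libraries. Without *Hnrnpr*-/- axonal replicate 4 all 9 were below 0, from -3.14 to -0.89, and without +/+ axonal replicate 1 all 9 were above 0, from 1.01 to 1.93. The replicate number as a block changed the sign of 6 genes (median -0.28), and each culture as a block that of 7 (median -1.56), with 0 called in either.

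The libraries were next searched for genes that behaved like these 9. Among the 19955 other genes tested, the 10 most like them, by the correlation of log2(CPM + 0.5) with the mean of the 9 genes over 16 libraries, were *Ms4a7* (r = 0.985), *Cd300a*, *Fcgr3*, *Adgre1*, *Ctss*, *Hk3*, *Cd68*, *Fcer1g*, *Bin2* and *Selplg* (r = 0.959). Most are known from macrophages and other myeloid cells. *Adgre1* encodes the macrophage antigen F4/80, *Cd68* a lysosomal glycoprotein, *Ctss* the protease cathepsin S, and *Fcgr3* and *Fcer1g* an Fc receptor and its signalling chain. *Cd68* had 9.81, 4.64, 9.15 and 3.14 CPM in +/+ somatodendritic and 0.610, 12.5, 2.25 and 183.7 CPM in *Hnrnpr*-/- axonal libraries. It had the same low and high libraries as the 9 genes. Each of the 10 had an r of at least 0.903 within the somatodendritic and 0.964 within the axonal libraries.

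Of 20 pan-macrophage and myeloid genes, *Spi1*, which encodes the myeloid transcription factor PU.1, had r = 0.933 with the 9 genes, *Lyz2*, which encodes lysozyme, 0.928 and *Ptprc*, the pan-leukocyte antigen CD45, 0.936. In axons against the somatodendritic compartment of +/+ motoneurons, 2 of these 20 genes passed as higher and 1 as lower, where 30.1% and 27.4% of all genes did. They were *Runx1* (log2 fold change 4.77, standard error 0.89), *Cd14* (2.80, standard error 1.02) and *Coro1a* (-1.15, standard error 0.42, adjusted p = 0.0292 from edgeR). In *Hnrnpr*-/- motoneurons *Runx1* and *Cd14* passed as higher and 0 as lower, beside 27.5% and 26.8% of all genes. The r of *Runx1*, *Cd14* and *Coro1a* with the 9 genes was 0.078, 0.337 and 0.377 over the 16 libraries of both compartments. It was 0.803, 0.613 and -0.298 within the somatodendritic and 0.122, 0.463 and 0.539 within the axonal libraries. The 20 genes summed to 128.0 to 252.4 CPM in +/+ somatodendritic and 33.8 to 1398 CPM in *Hnrnpr*-/- axonal libraries.

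Other genes that are used as microglia markers followed to different degrees. Of 10 such genes, *Selplg*, *Fcrls* and *Gpr34* had r = 0.959, 0.915 and 0.831 with the 9 genes, whereas *Tmem119*, *Olfml3* and *Sall1* had 0.131, 0.093 and 0.082. Within the somatodendritic libraries the r of these last 3 genes was 0.530, 0.688 and 0.483, and within the axonal ones 0.267, -0.051 and 0.063. *Siglech* had at most 3 counts in every library. *Tmem119*, a surface protein of mature microglia and of osteoblasts, had 18.9, 5.90, 19.6 and 48.0 CPM in *Hnrnpr*-/- axonal libraries, and *Olfml3*, a secreted protein, had 23.0, 23.0, 68.8 and 61.4 CPM. These 2 genes were thus well detected in replicates 1 and 3, which had 38 and 32 counts over the 9 microglia genes. *Tmem119* rose in axons in both genotypes, by a log2 value of 3.73 (standard error 0.96, edgeR adjusted p = 0.00425) in +/+ and 3.18 (standard error 0.93, adjusted p = 0.00997 from edgeR) in *Hnrnpr*-/- motoneurons. *Olfml3* rose by 2.67 (standard error 0.68) and 1.81 (standard error 0.65). In all, 3 of the 9 genes of this list that were tested passed as higher and 1, *Slc2a5*, as lower in +/+ axons, where 30.1% and 27.4% of all genes did, and 2 as higher in *Hnrnpr*-/- axons, where 27.5% of all genes did.

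Macrophages at the borders of the nervous system express *Mrc1*, *Pf4*, *Stab1* and *Lyve1*. Of 8 genes of this kind 5 were tested with edgeR, and 0 passed or had an unadjusted p under 0.05 between compartments in either genotype, beside 57.5% and 62.2% of all genes in +/+ and 54.2% and 59.8% in *Hnrnpr*-/- motoneurons. *Ms4a7*, the closest of all genes to the 9, belongs to this list and had 0.0291, 6.09, 0 and 59.5 CPM in *Hnrnpr*-/- axonal libraries. *Stab1*, a scavenger receptor, had 6.97, 17.4, 20.3 and 41.9 CPM there and an r of 0.673 over the 16 libraries, with 0.938 within the somatodendritic and 0.613 within the axonal ones, where *Ms4a7* had 0.954 and 0.994. *Mrc1*, the mannose receptor, had 4.50, 4.59, 5.59 and 1.36 CPM in +/+ somatodendritic libraries and 2.86, 1.35, 0 and 0 CPM in +/+ axonal libraries, which overlapped. *Mrc1* was chosen after its values were seen. Of 10 genes that activated microglia express 9 were tested, and 3 of them, *Axl*, *Cd9* and *Lgals3*, rose in axons in both genotypes, beside 30.1% of all genes in +/+ and 27.5% in *Hnrnpr*-/- motoneurons. *Axl*, a receptor that binds dying cells, rose by 3.16 (standard error 0.47) and 2.52 (standard error 0.46) on the log2 scale, and its r with the 9 genes was -0.029 over the 16 libraries, 0.885 within the somatodendritic and -0.175 within the axonal ones. That was the lowest r over the 16 libraries among the activated microglia genes tested. The others ran from 0.134 for *Cd9* to 0.944 for *Clec7a*, with *Lgals3* at 0.590, *Spp1* at 0.745 and *Gpnmb* at 0.903.

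The ligands of the microglial receptors were expressed in the same cultures. *Csf1*, which encodes a ligand of the *Csf1r* product, had 20.0, 15.4, 35.5 and 16.7 CPM in +/+ and 11.7, 23.7, 35.8 and 36.6 CPM in *Hnrnpr*-/- somatodendritic libraries. In axonal libraries it had 205.8, 118.5, 316.0 and 749.6 CPM in +/+ and 241.2, 181.0, 419.9 and 433.0 CPM in *Hnrnpr*-/- motoneurons. All 8 axonal libraries were above all 8 somatodendritic ones, those nearly free of *Csf1r* included. Its log2 fold change in axons was 3.99 (standard error 0.57, adjusted p = 8.82e-05 from edgeR) in +/+ and 3.57 (standard error 0.56, adjusted p = 0.000196 from edgeR) in *Hnrnpr*-/- motoneurons. *Il34*, the other ligand, rose by 1.62 (standard error 0.59) and 2.06 (standard error 0.60). Of the 9 ligands and signalling partners tested, 4 passed as higher in axons in each genotype, *Clu* and *Tgfb1* being the others, and 0 as lower, beside 30.1% higher and 27.4% lower of all genes in +/+ and 27.5% and 26.8% in *Hnrnpr*-/- motoneurons. *Cx3cl1*, named after its values were seen, had 156.9 to 199.3 CPM in somatodendritic and 97.3 to 241.0 CPM in axonal libraries, which overlapped. *Apoe*, a lipid carrier that binds TREM2, had r = 0.900 with the 9 genes, and its levels of 212.7 to 1638 CPM in *Hnrnpr*-/- axonal libraries had the same low and high libraries.

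C1q acts with proteases and later components of the cascade. Of 8 complement partners, 4 passed as higher in +/+ axons and 3 in *Hnrnpr*-/- axons, with 0 lower. The shares over all genes were 30.1% and 27.5% higher and 27.4% and 26.8% lower. *C1ra*, a protease of the C1 complex, rose by 3.40 (standard error 0.92) and 2.26 (standard error 0.88), and *Serping1*, the inhibitor of the complex, by 2.16 (standard error 0.51) and 1.90 (standard error 0.50). *C1s1* rose by 2.502 (standard error 1.03, adjusted p = 0.049 from edgeR) in +/+ motoneurons. The r of these 3 genes with the 9 microglia genes lay between -0.205 and -0.091 over the 16 libraries. Within the somatodendritic libraries it was 0.694 for *C1s1*, 0.402 for *C1ra* and 0.160 for *Serping1*, and within the axonal ones -0.365, -0.252 and -0.142. The rest of the complement list ran from -0.386 for *Cd55* to 0.840 for *C2* over the 16 libraries, with *C3* at -0.232, *Cr1l* at 0.019 and *C4b* at 0.651. Between genotypes, 0 genes of these 6 lists passed in edgeR in either compartment. An unadjusted p under 0.05 was found for 6 of 55 genes tested in somatodendritic libraries, beside 2.62% of all genes, and for 0 of 56 in axonal libraries, beside 0.723%. The somatodendritic count depended on single libraries. Of the pan-macrophage and myeloid genes, 0 of 19 had such a p without *Hnrnpr*-/- replicate 4, beside 277 of all 18207 genes. Without replicate 1 it was 15 of 20, beside 2291 of 18263. The median log2 fold change of *Hnrnpr*-/- against +/+ over the 19 pan-macrophage and myeloid genes tested was 0.91 in somatodendritic and 0.87 in axonal libraries, and over the other microglia genes 0.60 and 0.54. Without *Hnrnpr*-/- replicate 4 of the compartment, a setting added for these lists after the data were seen, the median of the 19 genes was 0.28 in somatodendritic and -1.40 in axonal libraries, where all 19 were then below 0, and that of the other microglia genes was 0.16 and -0.52.

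Transcripts of other non-neuronal cells were present and partly moved with the 9 genes. The 8 genes of astrocytes or radial glia summed to 1053 to 2241 CPM in somatodendritic and 3232 to 5933 CPM in axonal libraries. Among them *Gfap* and *Aqp4* had r = 0.824 and 0.785 with the 9 genes, while *Vim* had -0.084, with 0.605 within the somatodendritic and -0.496 within the axonal libraries. The 8 genes of oligodendroglia or Schwann cells summed to 204.3 to 1039 and 201.0 to 1789 CPM, with *Sox10* at r = 0.788, and the 8 genes of fibroblasts or meningeal cells to 60.7 to 1238 and 132.2 to 2041 CPM, with r from -0.056 to 0.310 over the 16 libraries, from -0.115 to 0.690 within the somatodendritic and from -0.046 to 0.243 within the axonal ones. Endothelial genes summed to at most 73.8 CPM, in *Hnrnpr*-/- axonal replicate 1. In that library *Kdr* had 68.4, *Esam* 5.29 and *Pecam1* 0.116 CPM, and *Cdh5*, *Cldn5* and *Tek* had 0. Red blood cell genes summed to at most 6.23 CPM. Of 8 genes of neutrophils, mast cells and lymphocytes, *S100a8*, *S100a9* and *Cd3e* had at most 3 counts in every library, and the list's 8.64 to 241.8 CPM included *Kit*, which was lower in axons (log2 fold change -2.62, standard error 0.55, in +/+ motoneurons). The part of these cells in the values of the 9 genes was not tested.

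The factor PU.1 binds purine-rich sites with the core GAGGAA in promoters of myeloid genes. *Spi1*, which encodes it, had 0, 2.64, 0.210 and 23.5 CPM in *Hnrnpr*-/- axonal libraries, with the same low and high libraries as the 9 genes. In the 250 bases before the annotated start of each gene in GRCm39, this core or its reverse complement TTCCTC was found in 4 of 9 genes, *C1qb*, *C1qc*, *Trem2* and *Tyrobp*, and in 22.3% of 22121 promoters of protein-coding genes. The stretches with the match are shown on the strand of the gene so that the matched letters, in capitals, can be read in their context. The matches begin 30, 176, 40 and 22 bases before the start, and a second one in *Tyrobp* 75 bases before it. A match describes the letters and does not show binding.
*C1qb* (chr4:136613512-136613571, minus strand): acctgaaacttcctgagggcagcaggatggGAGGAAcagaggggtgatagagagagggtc
*C1qc* (chr4:136620386-136620445, minus strand): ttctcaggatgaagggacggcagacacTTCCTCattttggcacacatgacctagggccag
*Trem2* (chr17:48653362-48653421, plus strand): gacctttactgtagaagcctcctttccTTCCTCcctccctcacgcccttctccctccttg
*Tyrobp* (chr7:30113147-30113206, plus strand): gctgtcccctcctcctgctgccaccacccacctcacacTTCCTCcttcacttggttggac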

How the data were processed

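RNA of both compartments of +/+ and *Hnrnpr*-/- motoneurons was measured in 16 libraries, grouped by their titles. The authors trimmed reads with Cutadapt, aligned them with STAR 2.7.2b to the RefSeq assembly of GRCm39 and counted them on exons with featureCounts 1.6.4. The authors deposited expected counts from featureCounts, in which a read with several alignments or overlapping genes is divided into fractions, and did not normalize them. The SMART-Seq v4 kit does not mark strand, whereas counting used the reverse-strand setting, so that genes overlapping on opposite strands cannot be told apart. PCR copies carried no molecular identifiers, and the limit of 3 counts for a count of 0 covers counting error only. The study calls the replicates biological, but nothing ties a library to an animal or litter, so p-values measure the spread between these libraries, which may be partly technical.

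Counts were rounded to whole numbers. R 4.3.3 with edgeR 4.0.16 was used with its filter by group, TMM factors and the two-sided quasi-likelihood F-test, fitted to 16 libraries for compartments and the interaction and to the 8 libraries of a compartment for genotypes. Adjusted p-values follow Benjamini and Hochberg and cover every gene in a fit. A standard error is the log2 fold change divided by the square root of F. DESeq2 1.42.0 was an alternative, beside other size factors, filters, unrounded counts, other samples in the fit, replicate blocks and each library left out. Genes below the filter were tested by exact permutation in SciPy 1.17.1. The model was tested on simulated data. A fit of all 16 libraries pooled a small somatodendritic and a large axonal spread and was miscalibrated on such data. The common dispersion of edgeR was 0.0499 in somatodendritic and 0.275 in axonal libraries. The genotypes were therefore fitted within each compartment. The compartment and interaction tests still use the 16-library fit, and their p-values and standard errors carry that limit.

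The members and gene lists were chosen with earlier results of these data known. The text names all 9 members, from each related list up to 3 called genes with the largest change (or the 2 most abundant), the 10 genes most like the members and *Hnrnpr*. Further genes of the lists were named after their values were seen. Same-numbered libraries of the 2 compartments correlated in their deviations from the group means at 0.178 to 0.564 in *Hnrnpr*-/- and 0.0943 to 0.279 in +/+ motoneurons, and each correlated best with its own number, whereas those of the 2 genotypes did so in 1 of 4 somatodendritic and 2 of 4 axonal cases. In +/+ replicate 4 the margin was small, at 0.0943 against 0.0758 for the closest other number. The labels do not state which libraries share a culture. Promoter sequences are from the GRCm39 reference.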

Additional observations from a re-analysis of the deposited data

Results flagged for a closer look

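In 8 of 36 combinations of gene and group, 1 library lay so far from the other 3 that the gap exceeded Dixon's critical value for 4 samples, which chance does in about 1 in 20 groups. The 9 genes move together, so that these 8 are not separate events. In 7 of them *Hnrnpr*-/- axonal replicate 4 was the highest. It had 147.0 CPM of *C1qb*, 117.0 of *C1qc*, 79.1 of *Tyrobp*, 53.6 of *Trem2*, 51.4 of *C1qa*, 27.4 of *Cx3cr1* and 5.21 CPM of *Aif1*. The eighth was *Csf1r* in +/+ axonal replicate 1, at 28.0 CPM. No somatodendritic group met this limit.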

How the results depend on the processing

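The number of called microglia genes was 0 in all 5 comparisons under every alternative that kept all libraries, and left-out libraries gave 0 to 1 in *Hnrnpr*-/- axons against the somatodendritic compartment, with 1 (*Aif1*) without *Hnrnpr*-/- axonal replicate 1. Of all genes, DESeq2 called 1 for the interaction (0 in edgeR) and 2 between genotypes in somatodendritic libraries (1 in edgeR), and a model of all 16 libraries called 2 between genotypes in axons. The main model of the 8 axonal libraries called 1, and 0 to 1 over left-out libraries, with 0 without *Hnrnpr*-/- axonal replicate 2. When a group had to hold 10 or more counts in all its libraries, 7 genes were tested between compartments and 6 between genotypes, and models of only the groups compared tested 8 between compartments. The depth left *Aif1* and *P2ry12* untested between genotypes in somatodendritic and *P2ry12* in axonal libraries by edgeR. The cause of the sign changes listed here was not tested.

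Library totals without TMM factors gave 0.023 for *Csf1r* between compartments in *Hnrnpr*-/- motoneurons and -0.046 for *Cx3cr1* and -0.027 for *Trem2* in the interaction. Values that changed sign when 1 library was left out ranged, between compartments, over -1.55 to 0.19 for *Csf1r*, -0.68 to 0.69 for *C1qa*, -0.13 to 1.29 for *C1qc* and -0.71 to 0.75 for *Cx3cr1* in +/+ motoneurons and over -2.38 to 0.56 for *Csf1r*, -1.81 to 2.12 for *C1qa*, -1.66 to 2.13 for *C1qb*, -2.12 to 2.01 for *C1qc*, -2.04 to 1.74 for *Cx3cr1*, -1.59 to 2.84 for *Trem2* and -1.05 to 2.97 for *Tyrobp* in *Hnrnpr*-/- motoneurons. Between genotypes in axons they ranged over -1.36 to 2.29 for *Csf1r*, -1.16 to 2.85 for *C1qa*, -1.86 to 2.12 for *C1qb*, -1.92 to 2.505 for *C1qc*, -0.74 to 2.64 for *Cx3cr1*, -1.03 to 1.56 for *Aif1*, -1.88 to 2.40 for *Trem2* and -1.91 to 2.26 for *Tyrobp*, and for the interaction over -2.16 to 1.43 for *Csf1r*, -2.03 to 1.93 for *C1qa*, -2.87 to 1.06 for *C1qb*, -3.002 to 1.37 for *C1qc*, -2.33 to 1.46 for *Cx3cr1*, -0.89 to 2.03 for *Aif1*, -3.14 to 1.30 for *Trem2*, -2.88 to 1.24 for *Tyrobp* and -1.12 to 1.72 for *P2ry12*. All of the lowest values between genotypes in axons and in the interaction were those without *Hnrnpr*-/- axonal replicate 4.

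With the replicate number as a block no call changed. Between genotypes the numbers mark nothing shared that the labels state, and the block gave -0.65 for *Csf1r*, -1.01 for *C1qa*, -1.96 for *C1qb*, -1.65 for *C1qc*, -0.86 for *Cx3cr1*, -0.16 for *Aif1*, -1.22 for *Trem2* and -1.40 for *Tyrobp* in axons, each below 0. In somatodendritic libraries the block kept all 7 genes above 0 but lowered them to 0.53 to 0.76 (median 0.63), from 0.83 to 1.62 (median 1.03). Between compartments the block gave -0.016 for *Cx3cr1* in +/+ and -0.30 for *Cx3cr1* in *Hnrnpr*-/- motoneurons, and in the interaction -0.13 for *Csf1r*, -0.61 for *C1qb*, -0.53 for *C1qc*, -0.28 for *Cx3cr1*, -0.66 for *Trem2* and -0.74 for *Tyrobp*. With each culture as a block, chosen after the data were seen, sign changes gave -0.30 for *C1qa* and -0.79 for *Cx3cr1* in +/+ and -0.50 for *C1qa*, -1.26 for *C1qb*, -1.49 for *C1qc*, -1.17 for *Cx3cr1*, -0.43 for *Trem2* and -0.44 for *Tyrobp* in *Hnrnpr*-/- motoneurons, and in the interaction -1.86 for *Csf1r*, -0.20 for *C1qa*, -2.11 for *C1qb*, -1.98 for *C1qc*, -0.37 for *Cx3cr1*, -1.56 for *Trem2* and -1.60 for *Tyrobp*.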
